A study of Homo sapiens with 6 samples.

Results

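The SRSF and HNRNP splicing factors were taken as the gene symbols made of SRSF and a number, or of HNRNP and a single letter block with an optional number and an optional L suffix, that had at least 60 counts summed over the 6 libraries. Of 43424 symbols listed, 38 matched the name pattern and 31 reached the count minimum, 11 of them SRSF genes and 20 HNRNP genes. The 7 that fell short were SRSF12 with 7 counts, HNRNPH2 with 24, the pseudogene HNRNPKP3 with 3, and HNRNPCL1, HNRNPCL2, HNRNPCL3 and HNRNPCL4 with 0. The members nearest above the minimum were HNRNPA1L3 with 652 counts and HNRNPLL with 715. HNRNPA2B1 is a major hnRNP gene that the name pattern does not take, because of its second letter, and it is given with the related genes further on.

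All libraries are labelled HL-60, a human acute myeloid leukaemia line, with the genotype WT. The 3 CIP-labelled libraries come from cells kept for 6 months in an extract of Corydalis incisa (Thunb.) Pers., abbreviated CIP, whose dose was raised stepwise between 2 and 20 µg/ml, and which the series calls CIP-resistant. The 3 DMSO-labelled libraries come from cells kept with DMSO for the same time. Total RNA was read with QuantSeq, which counts about 1 tag per transcript near its polyadenylated end, so counts can be set side by side between genes without a length correction, as far as each gene's 3' end can be read. The labels do not say whether the replicates were separate cultures or whether a group is 1 selected population, and a p-value here speaks of library-to-library spread only, which may be technical.

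Library totals lay between 9314584 and 10868396 counts with the CIP label and between 8143657 and 9759687 with the DMSO label. The groups stood far apart as a whole. Of 12844 genes tested with edgeR, 73.1% were called at an adjusted p under 0.05, 34.9% higher and 38.2% lower with the CIP label. With library totals alone in place of TMM scaling these counts were 3452 higher and 5920 lower, in place of 4482 and 4912, and the median log2 fold change of all genes was -0.26 in place of -0.03. Of 7 identity markers of the line 3 were higher and 4 lower with the CIP label, and MPO was nearly absent under the DMSO label. MPO, the myeloperoxidase that HL-60 is known for, stood at 8684 ± 282 CPM (counts scaled to a common library size, here with TMM, the trimmed mean of M-values) with the CIP label against 1.12 ± 0.32 CPM with the DMSO label (SD, n = 3 each), and MYC at 280.1 ± 52.3 CPM against 41.8 ± 3.9 CPM. The granule proteases ELANE (333 ± 32.9 against 592 ± 48.7 CPM) and CTSG (95.4 ± 4.8 against 655 ± 28.1 CPM) were lower with the CIP label, as were AZU1 and CDKN2A (28.4 ± 2.4 against 111 ± 16.1 CPM), while the protease PRTN3 was higher (426 ± 70.5 against 287 ± 18.8 CPM). The near absence of MPO goes against the HL-60 label in the DMSO-labelled libraries, although ELANE, CTSG and PRTN3 were well read in them. A difference between treatments and one between cell populations therefore cannot be told apart in any comparison here, and groups are called by their labels. Summed over 10 lymphoid markers the level was 4.03 to 5.32 CPM with the CIP label and 87.6 to 108 CPM with the DMSO label, over 9 stromal and epithelial markers 62.2 to 142 CPM against 177 to 289 CPM, and over 8 erythroid markers 3.43 to 4.97 CPM against 7.12 to 8.81 CPM. Of 7 stromal and epithelial markers tested only PECAM1 was called, lower at 3.12 ± 1.5 against 38.1 ± 2.8 CPM. The other 6, FN1 and the collagen and keratin genes, were not called. HBG1, GYPB, ALAS2 and MS4A1 were at 0 counts in every library, and the part of other cell types in the results was not tested.

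SR proteins carry RNA recognition motifs and a tail rich in arginine and serine, bind exonic enhancers and help the spliceosome to define exons. The hnRNP proteins coat nascent transcripts and, through RRM, KH or RGG modules, often silence exons, so that the balance between both families sets many alternative splicing choices. Both families are abundant in dividing blood cells, and mutations in SRSF2 are common in myeloid neoplasms. Many SR and hnRNP genes restrain their own output by splicing in poison exons that send the transcript to nonsense-mediated decay, and a count near the 3' end does not tell such isoforms from coding ones. In bulk RNA, fewer cells that make a transcript and less of it per cell cannot be told apart.

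Most members were higher with the CIP label, and most differences were smaller than 2-fold. All 31 passed the filter on low counts. The test called 19 higher and 8 lower, and 4 were not called, beside 34.9% higher and 38.2% lower over all genes tested. A change of at least 2-fold was called for 5 of the 31, namely HNRNPLL, HNRNPAB, HNRNPA1, SRSF8 and SRSF2, all higher, beside 39.0% of all genes tested. Libraries of the groups did not overlap for 28 of the 31, beside 75.5% of all genes tested. The median log2 fold change was 0.47 for SRSF genes and 0.23 for HNRNP genes, against -0.03 for all genes. With library totals alone these medians were 0.24, -0.004 and -0.26, so all 3 moved down by a like amount. The calls were then 7 higher and 3 lower for SRSF genes, in place of 8 and 3, and 9 higher and 7 lower for HNRNP genes, in place of 11 and 5. All 31 members are among the 8963 genes that reached 10 CPM in the higher group. With TMM scaling the median log2 fold change of those genes was 0.08, and 31.8% were called at 2-fold or more. Their median absolute log2 fold change was 0.65, against 0.51 for the members.

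**Figure D1:**
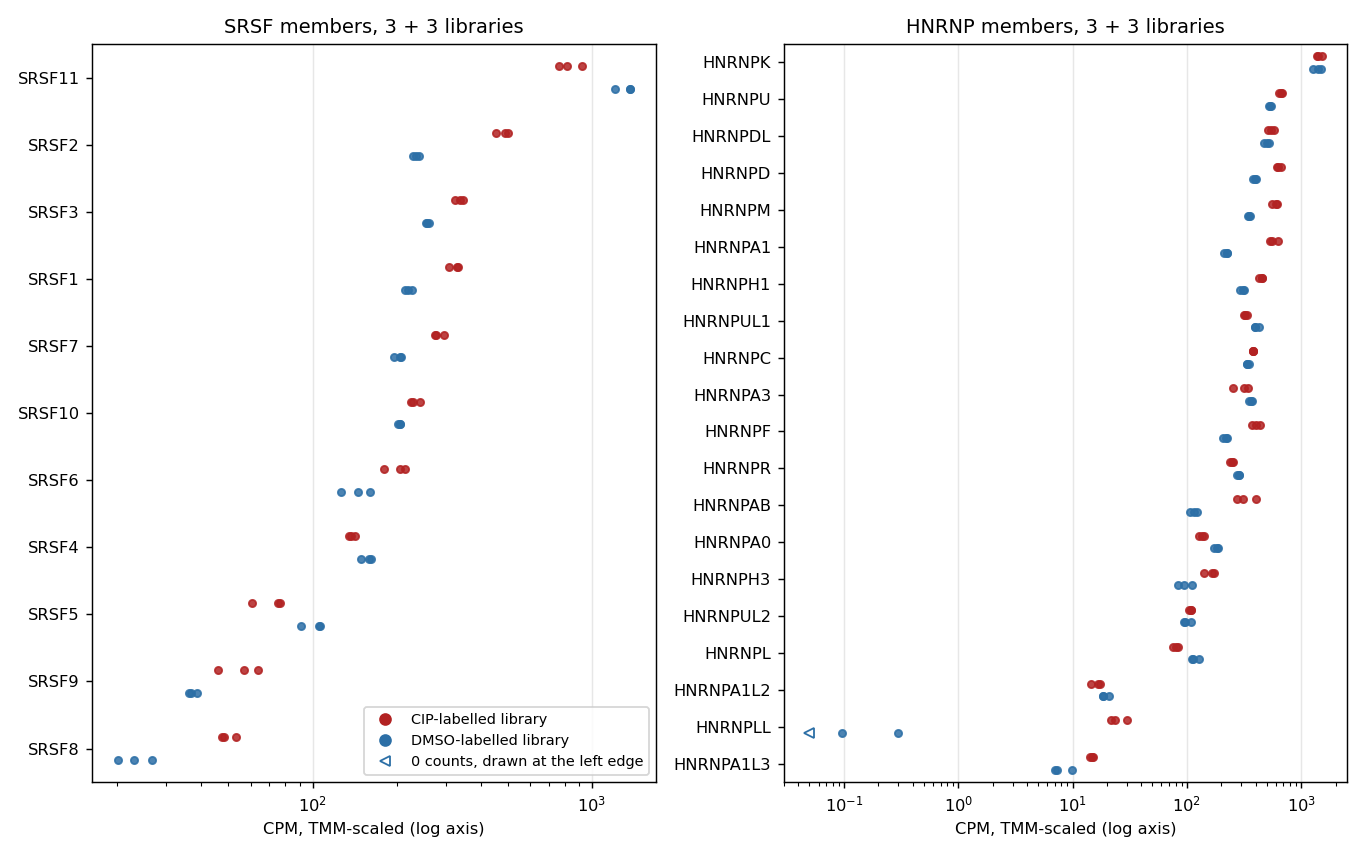
Level of each member in CPM on a log axis, 1 point per library, CIP-labelled libraries above DMSO-labelled ones within each row, SRSF genes on the left and HNRNP genes on the right. HNRNPLL lies between 21.9 and 29.7 CPM with the CIP label and at or under 0.297 CPM with the DMSO label, while SRSF11 is the most abundant SRSF gene and HNRNPK the most abundant HNRNP gene under both labels.

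HNRNPLL stood apart from every other member. It encodes a relative of hnRNP L known for silencing the variable exons of CD45 (PTPRC) in activated lymphocytes. The CIP-labelled libraries held 189, 290 and 232 HNRNPLL counts and the DMSO-labelled ones 3, 1 and 0, which is 21.9, 29.7 and 23.4 CPM against 0.297, 0.0959 and 0 CPM. Every CIP-labelled library was thus well above every DMSO-labelled one. The ratio of summed counts, scaled for library size, was 184 (exact 95% interval 71.7 to 678, counting error only), and the fitted log2 fold change was 7.39 ± 0.38 (SE, edgeR adjusted p = 1.43e-18). HNRNPLL passed the filter through the CIP-labelled libraries alone, and by size of fitted change it ranked 521 among the 12844 genes. Its paralog HNRNPL, which binds CA-rich elements, went the other way, with 80.1, 75.0 and 84.0 CPM against 113, 112 and 128 CPM, a difference of -0.56 ± 0.08 on the log2 scale (SE, adjusted p = 1.74e-07 by edgeR). As a geometric mean over libraries, with 0.5 added to each count, HNRNPL had 3.21 counts per HNRNPLL count with the CIP label and 830.8 with the DMSO label.

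To show what lies before the start sites of members that moved most, the RefSeq promoter windows (GRCh38.p14, 250 bases before to 50 after the start) are printed for the 3 members with the largest rise and the 1 with the largest fall among the 28 found in the table. SRSF2, HNRNPA1 and HNRNPA1L3 had no entry. Capitals mark CCAAT and CCGGAAG, the core of CCAAT-binding and ETS factor motifs, read on both strands. The windows are chr2:38602879-38603178 (minus strand) for HNRNPLL, chr5:178204283-178204582 (plus) for HNRNPAB, chr11:95066627-95066926 (plus) for SRSF8 and chr1:70221130-70221429 (plus) for SRSF11. The SRSF11 window lies inside the span that RefSeq gives the gene, at a start downstream of its outermost one.
HNRNPLL: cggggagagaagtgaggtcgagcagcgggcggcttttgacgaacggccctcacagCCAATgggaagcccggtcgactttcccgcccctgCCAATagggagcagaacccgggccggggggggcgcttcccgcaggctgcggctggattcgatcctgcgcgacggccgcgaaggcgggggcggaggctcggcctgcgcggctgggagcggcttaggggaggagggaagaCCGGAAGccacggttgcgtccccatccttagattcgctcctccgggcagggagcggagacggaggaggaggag
HNRNPAB: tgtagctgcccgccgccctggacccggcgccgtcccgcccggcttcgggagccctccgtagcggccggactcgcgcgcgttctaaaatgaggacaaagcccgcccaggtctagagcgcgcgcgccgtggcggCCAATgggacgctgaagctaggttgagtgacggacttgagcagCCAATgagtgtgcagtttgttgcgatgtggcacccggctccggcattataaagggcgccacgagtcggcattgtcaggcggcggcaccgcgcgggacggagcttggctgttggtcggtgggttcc
SRSF8: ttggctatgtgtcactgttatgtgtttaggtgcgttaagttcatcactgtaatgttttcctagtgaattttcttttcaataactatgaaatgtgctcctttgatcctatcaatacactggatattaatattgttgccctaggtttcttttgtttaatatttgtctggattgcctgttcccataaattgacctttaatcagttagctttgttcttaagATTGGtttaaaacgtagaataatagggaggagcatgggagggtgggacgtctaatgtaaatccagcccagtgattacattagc
SRSF11: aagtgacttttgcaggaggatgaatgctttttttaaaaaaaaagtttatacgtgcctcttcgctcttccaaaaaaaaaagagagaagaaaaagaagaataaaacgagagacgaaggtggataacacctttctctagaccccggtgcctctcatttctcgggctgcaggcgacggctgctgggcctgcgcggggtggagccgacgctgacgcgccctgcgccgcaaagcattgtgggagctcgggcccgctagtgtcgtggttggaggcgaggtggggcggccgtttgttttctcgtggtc

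The HNRNPLL window held 2 CCAAT matches and 1 CCGGAAG match, with 33 CpG dinucleotides and 70.3% G or C. HNRNPAB held 2 CCAAT matches and 37 CpG, SRSF11 neither motif and 23 CpG. SRSF8, a retrocopy of SRSF2, held 1 CCAAT match and only 3 CpG in a window of 36% G or C, the lowest CpG number of the 28, whose median was 30.5 against 14 over all 35116 windows. CCAAT was in 13 of the 28 member windows (46.4%) and in 34.6% of all windows, CCGGAAG in 17.9% and 10.3%, and CACGTG, the E-box read by MYC and its relatives, in 21.4% and 7.26%. The E-box genes were HNRNPA3, HNRNPD, HNRNPDL, HNRNPH3, HNRNPM and HNRNPUL1. Of these 3 rose, 2 fell and 1 was not called, beside 19, 8 and 4 of all 31 members. GGGGCGGGG was in 28.6% and 15.7%, TATAAA in 17.9% and 11.5%, and AAGATGGC was in 0 member windows and 2.89% of all. These matches are letters in a fixed window and were not related to the changes.

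All 11 SRSF genes were called, 8 higher and 3 lower, beside 34.9% higher and 38.2% lower over all genes tested. Among the classic exon-enhancer binders SRSF2 (SC35; chromosome 17, 76734115 to 76737411, GRCh38.p14) rose most. It stood at 488, 500 and 454 CPM with the CIP label and at 229, 235 and 241 CPM with the DMSO label, a difference of 1.03 ± 0.06 on the log2 scale (SE, adjusted p = 2.97e-16 by edgeR). Its retrocopy SRSF8 (chromosome 11, 95066877 to 95071225) stood at 48.3, 47.4 and 53.3 CPM against 26.7, 20.1 and 23.0 CPM, a difference of 1.09 ± 0.12 on the log2 scale (SE, adjusted p = 7.01e-10 by edgeR). Parent and retrocopy thus rose by about the same factor. No library of one group reached into the other, as for 75.5% of all genes tested. In the last 300 bases of the longest GENCODE transcript of each, no stretch of 50 bases was shared with another gene.

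SRSF1 (ASF/SF2), a splicing activator that also acts in export and translation, stood at 329, 331 and 308 CPM against 220, 215 and 227 CPM, a difference of 0.55 ± 0.06 on the log2 scale (SE, adjusted p = 2.69e-09 by edgeR). Its nearest relative SRSF9 (SRp30c) was less abundant in both groups, at 45.8, 63.6 and 56.9 CPM against 36.8, 36.2 and 38.6 CPM. The SRSF9 log2 fold change was 0.58 ± 0.11 (SE, edgeR adjusted p = 2.24e-05), and CIP replicate 1 was the lowest CIP-labelled library. SRSF9 overlaps GATC, a subunit of a mitochondrial amidotransferase, with 1231 counts in the 3 CIP-labelled libraries together and 687 in the DMSO-labelled ones. Without a stated strand setting, reads of such a pair cannot be told apart. The same holds for SRSF2 with MFSD11 (346 against 277 counts), SRSF4 with MECR (816 against 972), HNRNPK with RMI1 (1531 against 753), HNRNPAB with PHYKPL (449 against 356) and HNRNPH3 with RUFY2 (249 against 214) and PBLD (47 against 33).

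SRSF3 (SRp20) and SRSF7 (9G8), a small pair that links splicing to mRNA export and polyadenylation, rose less. SRSF3 stood at 344, 337 and 323 CPM against 255, 261 and 257 CPM, a difference of 0.38 ± 0.06 on the log2 scale (SE). SRSF7, whose zinc knuckle sets it apart, stood at 275, 295 and 277 CPM against 206, 208 and 196 CPM, a difference of 0.48 ± 0.07 on the log2 scale (SE). Neither gene overlapped between groups, which also held for 75.5% of all genes tested. The edgeR adjusted p-values were 2.3e-06 for SRSF3 and 6.85e-08 for SRSF7.

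The relatives SRSF4, SRSF5 and SRSF6 (SRp75, SRp40 and SRp55), which have paired RNA recognition motifs, moved in different directions. SRSF6 rose, with 214, 180 and 206 CPM against 146, 161 and 126 CPM (log2 fold change 0.47 ± 0.08, SE, edgeR adjusted p = 4.09e-06). SRSF5 fell, with 60.7, 76.3 and 74.9 CPM against 106, 90.9 and 106 CPM (log2 fold change -0.51 ± 0.09, SE, edgeR adjusted p = 5.95e-06). SRSF4 was slightly lower at 138 ± 3.5 CPM against 157 ± 6.9 CPM (SD, n = 3 each), a difference of -0.18 ± 0.07 on the log2 scale (SE, adjusted p = 0.0201 by edgeR). The SRSF4 call was lost without CIP replicate 1 (adjusted p = 0.0733), without CIP replicate 3 (0.07) and with no filter on low counts (0.0666).

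SRSF11 (p54; chromosome 1, 70205696 to 70253052), an atypical SR protein that contacts U2AF, was the most abundant SRSF gene under both labels and the one that fell most. It stood at 765, 816 and 919 CPM with the CIP label, against 1368, 1373 and 1211 CPM with the DMSO label. The log2 fold change was -0.66 ± 0.07 (SE, edgeR adjusted p = 1.14e-10). SRSF10 (SRp38), which turns into a general repressor when dephosphorylated in heat shock and mitosis, stood at 232 ± 9.2 CPM against 204 ± 2.3 CPM (SD, n = 3 each), a difference of 0.19 ± 0.07 on the log2 scale (SE, adjusted p = 0.0111 by edgeR). That last call did not hold with library totals alone (log2 fold change -0.04, adjusted p = 0.553), upper-quartile scaling (0.0508) or without CIP replicate 1 (0.0521).

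**Figure D2:**
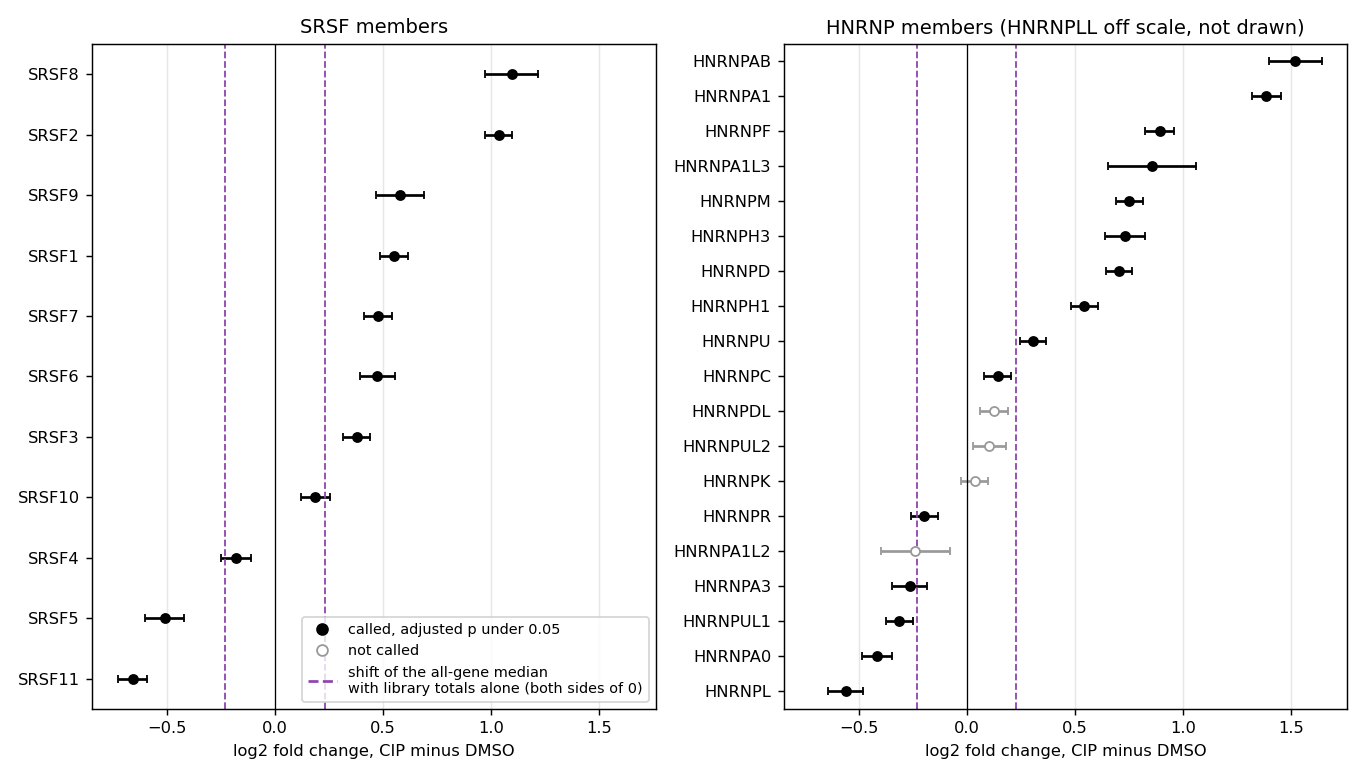
Fitted log2 fold change (CIP minus DMSO) of each member with its SE as a bar, filled where called and open where not, with HNRNPLL (7.39) off the scale. Dashed lines mark by how much the median of all genes moves when library totals replace TMM scaling; 8 of 11 SRSF points and 13 of the 19 HNRNP points shown lie above 0.

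Summed over its 11 members, the SRSF family held nearly the same level in both groups. The sum was 2950, 3018 and 3033 CPM with the CIP label and 2956, 2953 and 2790 CPM with the DMSO label, so the groups overlapped. As a share of all counts the sum was 0.274% to 0.279% against 0.303% to 0.321%, lower with the CIP label in every library, so the direction of the family total depends on the scaling. Its make-up did not depend on scaling. SRSF11 took 27.8% ± 2.3 of the SRSF counts with the CIP label and 45.4% ± 1.7 with the DMSO label (SD, n = 3 each), and SRSF2 took 16.02% ± 0.92 against 8.11% ± 0.47. SRSF2 had rank 2 in the family with the CIP label and rank 3, after SRSF3, with the DMSO label, where SRSF2 and SRSF3 differed by less than 1 percentage point (8.11% ± 0.47 and 8.90% ± 0.30). SRSF5, SRSF9 and SRSF8 were the 3 least abundant in both groups.

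**Figure D3:**
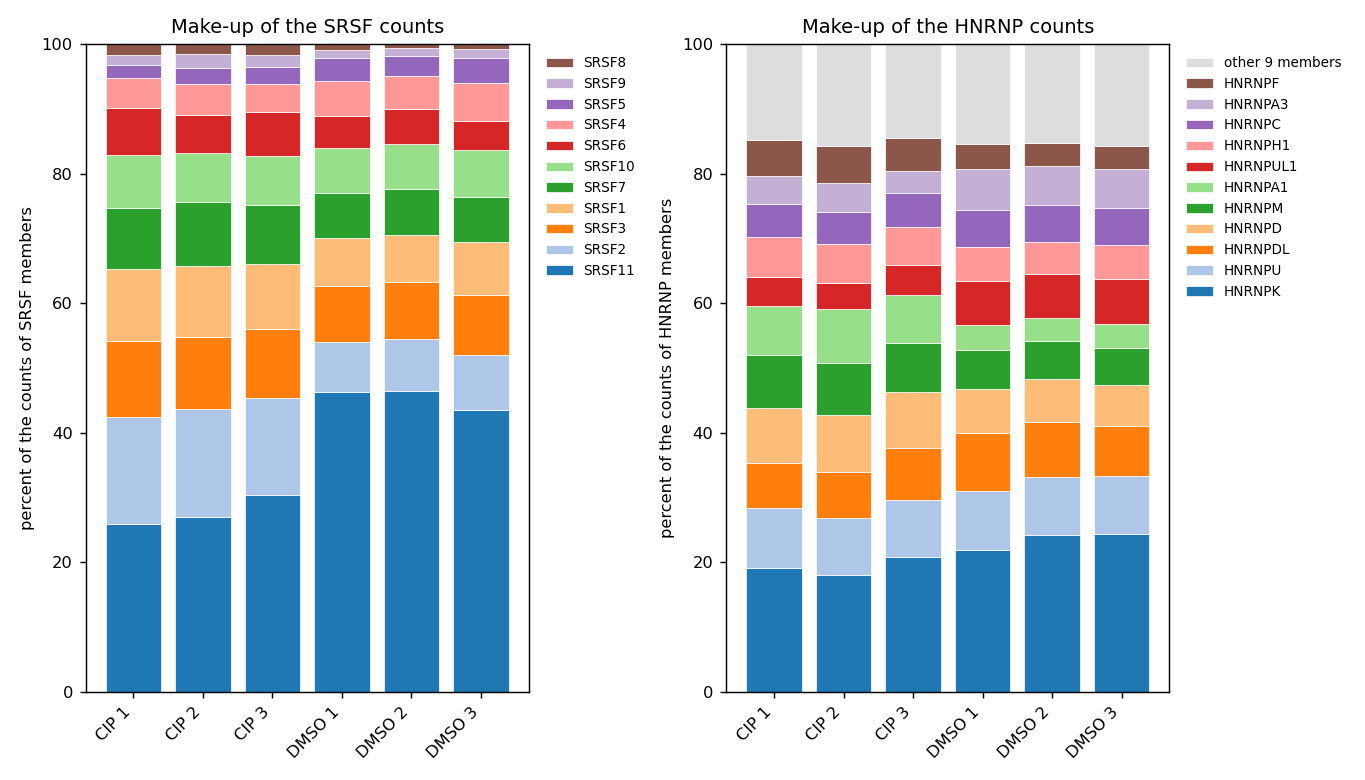
Share of each member, in percent of the counts of its family, in each of the 6 libraries, SRSF on the left and HNRNP on the right. The SRSF11 share is 27.8% on average with the CIP label and 45.4% with the DMSO label, and HNRNPA1 takes 7.75% against 3.70% of the HNRNP counts.

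Of the 20 HNRNP genes 11 were called higher, 5 lower and 4 were not called. The share called was 80%, near the 73.1% of all genes tested (34.9% higher and 38.2% lower). Those of the A/B type, which carry paired RRMs and a glycine-rich tail, split. HNRNPA1 (chromosome 12, 54280726 to 54287087), a silencer of exons and a known opponent of SRSF1 in 5' splice site choice, stood at 557, 630 and 537 CPM with the CIP label and at 225, 211 and 223 CPM with the DMSO label. Its log2 fold change was 1.39 ± 0.07 (SE, edgeR adjusted p = 3.72e-19). HNRNPAB (chromosome 5, 178204533 to 178211163), a binder of RNA and of CArG-box DNA, stood at 312, 400 and 277 CPM against 115, 107 and 122 CPM. Its log2 fold change was 1.52 ± 0.12 (SE, edgeR adjusted p = 4.12e-07), and although its CIP-labelled libraries were uneven, the lowest lay well above every DMSO-labelled one.

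HNRNPA3 and HNRNPA0 were lower with the CIP label. HNRNPA3, a close relative of HNRNPA1, stood at 315, 342 and 252 CPM against 374, 351 and 367 CPM, a difference of -0.26 ± 0.08 on the log2 scale (SE, adjusted p = 0.00504 by edgeR). That call was lost without CIP replicate 3 (adjusted p = 0.0665), where the log2 fold change was -0.14, and the lowest CIP-labelled value is that library's. HNRNPA0, which binds AU-rich elements of inflammatory transcripts, stood at 135 ± 6.3 CPM against 180 ± 7.7 CPM (SD, n = 3 each), a difference of -0.41 ± 0.07 on the log2 scale (SE, adjusted p = 2.83e-06 by edgeR).

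HNRNPA1L2 and HNRNPA1L3 are retrocopies of HNRNPA1 and are uncertain, because 61% and 72.1% of the 50-base stretches in the last 300 bases of their transcripts also occur in other genes, HNRNPA1 chief among them. HNRNPA1L3 stood at 14.3, 15.0 and 14.7 CPM against 7.03, 7.38 and 9.95 CPM (log2 fold change 0.86 ± 0.20, SE, edgeR adjusted p = 3.42e-04). HNRNPA1L2 was not called, at 16.3 ± 1.53 CPM against 19.2 ± 1.55 CPM (SD, n = 3 each). Of the other 29 members 28 shared no such stretch at the end of their longest coding transcript, and SRSF3 shared 1.2% with a noncoding RNA. HNRNPA1 is among the 28 for that end alone. Outside it, coding HNRNPA1 transcripts hold 153 of the 251 HNRNPA1L2 stretches and 131 of the 251 HNRNPA1L3 stretches. Reads of HNRNPA1 are therefore not shown to be free of the same doubt.

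HNRNPD (AUF1), which binds AU-rich elements and speeds mRNA decay, rose, and its neighbour and relative HNRNPDL was not called. HNRNPD stood at 615, 670 and 630 CPM against 404, 392 and 379 CPM, a difference of 0.70 ± 0.06 on the log2 scale (SE, adjusted p = 2.98e-12 by edgeR). HNRNPDL stood at 510, 548 and 584 CPM against 524, 503 and 476 CPM (log2 fold change 0.13 ± 0.06, SE, edgeR adjusted p = 0.0719), with overlapping groups. The 2 genes lie on chromosome 4, at 82352498 to 82373991 and 82422564 to 82430462.

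All 3 tested G-tract binders of the H/F type rose. HNRNPF stood at 405, 434 and 370 CPM against 223, 209 and 220 CPM (log2 fold change 0.89 ± 0.07, SE, edgeR adjusted p = 5.6e-14). HNRNPH1 stood at 446 ± 13.4 CPM against 306 ± 12.3 CPM (SD, n = 3 each), a difference of 0.54 ± 0.06 on the log2 scale (SE), and HNRNPH3 at 172, 167 and 142 CPM against 94.9, 82.9 and 112 CPM, a difference of 0.73 ± 0.09 on the log2 scale (SE). Groups did not overlap for any of them, nor for 75.5% of all genes tested. HNRNPH2 was under the count minimum, with 12 counts in all under each label.

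HNRNPM, which binds GU-rich elements and is known in splicing programmes of cell plasticity, rose, with 598, 610 and 555 CPM against 351, 340 and 355 CPM. Its log2 fold change was 0.75 ± 0.06 (SE, edgeR adjusted p = 6.76e-13). HNRNPU (SAF-A), a scaffold protein of the nuclear matrix, stood at 674, 667 and 636 CPM against 533, 521 and 542 CPM, a difference of 0.31 ± 0.06 on the log2 scale (SE, adjusted p = 2.53e-05 by edgeR). Under library totals alone HNRNPU was no longer called (log2 fold change 0.08, adjusted p = 0.225). Its relative HNRNPUL1 fell, at 326 ± 12.4 CPM against 404 ± 17.9 CPM (SD, n = 3 each; log2 fold change -0.31 ± 0.06, SE, edgeR adjusted p = 4.76e-05), and HNRNPUL2 was not called, at 107 ± 2.6 CPM against 99.7 ± 7.9 CPM.

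HNRNPK, a KH-domain protein that binds C-rich sequence and acts as a dose-sensitive tumour suppressor in myeloid cells, was the most abundant member under both labels and was not called. It stood at 1402, 1377 and 1516 CPM against 1280, 1417 and 1487 CPM (log2 fold change 0.04 ± 0.06, SE, edgeR adjusted p = 0.592). With library totals alone it was called lower (log2 fold change -0.19, adjusted p = 0.0041). HNRNPC, which binds uridine tracts and keeps U2AF2 from cryptic exons, stood at 377 ± 1.4 CPM against 341 ± 8.4 CPM (SD, n = 3 each; log2 fold change 0.14 ± 0.06, SE, edgeR adjusted p = 0.0363). The HNRNPC call did not hold with RLE or upper-quartile scaling, library totals alone, the replicate block, or without CIP replicate 1, DMSO replicate 1 or DMSO replicate 2 (adjusted p = 0.0545 to 0.187, with a log2 fold change of -0.09 under library totals). HNRNPR, a relative of SYNCRIP, was slightly lower at 247 ± 8.4 CPM against 283 ± 5.7 CPM (log2 fold change -0.20 ± 0.06, SE, edgeR adjusted p = 0.00672), a call lost without CIP replicate 1 (0.0629).

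The HNRNP sum was 7316, 7626 and 7284 CPM with the CIP label and 5857, 5861 and 6099 CPM with the DMSO label. It was higher in every CIP-labelled library, also as a share of all counts, at 0.679%, 0.706% and 0.665% against 0.637%, 0.626% and 0.662%, where the nearest libraries almost touch. HNRNPA1 had rank 5 of 20 in the family with the CIP label and rank 11 with the DMSO label, while HNRNPUL1 had rank 11 and rank 4. HNRNPK and HNRNPU led in both groups.

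Ratios of related genes within a library do not depend on the scaling, and 16 pairs were compared. With 3 against 3 libraries the exact permutation test (2-sided) cannot go below p = 0.10, so no pair can pass, and 11 pairs reached that smallest value, which is 0.145 after Benjamini-Hochberg adjustment over the 16. These are the 11 pairs whose groups did not overlap, beside 75.5% of single genes tested, so the count by itself is no result about the pairs. HNRNPA1 over HNRNPA3 had log2 ratios of 0.82, 0.88 and 1.09 with the CIP label and -0.73, -0.73 and -0.71 with the DMSO label, so HNRNPA1 was the more abundant of the pair under one label and the less abundant under the other. HNRNPR over SYNCRIP had -1.45, -1.40 and -1.47 against -0.46, -0.44 and -0.34, as SYNCRIP rose to 671 ± 19.5 CPM, against 377 ± 24.9 CPM (SD, n = 3 each), while HNRNPR was lower. SRSF5 over SRSF6 averaged -1.51 ± 0.29 against -0.51 ± 0.29 and SRSF4 over SRSF6 -0.53 ± 0.16 against 0.13 ± 0.24.

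Further pairs whose groups did not overlap were HNRNPD over HNRNPDL (mean log2 ratio 0.22 against -0.35), HNRNPU over HNRNPUL1 (1.02 against 0.40), HNRNPH1 over HNRNPF (0.15 against 0.50), HNRNPD over HNRNPAB (0.97 against 1.77), HNRNPUL1 over HNRNPUL2 (1.60 against 2.02), HNRNPC over RALY (2.33 against 2.24) and HNRNPL over HNRNPLL (1.68 against 9.70). Overlap was seen for SRSF2 over SRSF8 (3.27 ± 0.16 against 3.34 ± 0.23), SRSF1 over SRSF9 (2.55 ± 0.25 against 2.57 ± 0.01) and SRSF3 over SRSF7 (0.25 ± 0.07 against 0.35 ± 0.04). The remaining 2 pairs, with SRSF12 and HNRNPH2, also overlapped and rest on 7 and 24 counts of the rarer gene. Since no pair could pass the test, overlap does not show that these ratios were alike.

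**Figure D4:**
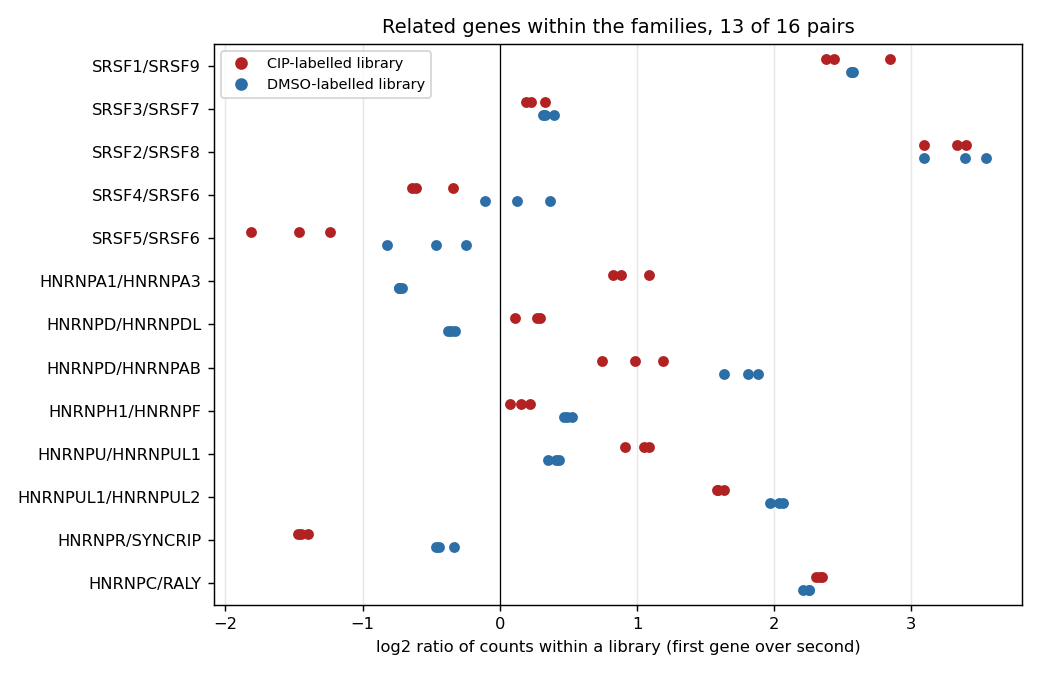
Log2 ratio of the counts of 2 related genes within each library, 1 point per library, CIP-labelled above DMSO-labelled, for 13 of the 16 pairs (those with SRSF12, HNRNPH2 and HNRNPLL are left out for low counts). HNRNPA1/HNRNPA3 and HNRNPD/HNRNPDL lie on opposite sides of 0 under the 2 labels, while SRSF2/SRSF8 and SRSF1/SRSF9 overlap.

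Of the hnRNP-type genes that the name pattern leaves out, 14 of 18 were called higher and 2 lower, beside 34.9% higher and 38.2% lower over all genes tested, with a median log2 fold change of 0.55 against -0.03. PTBP3, a polypyrimidine tract binder of blood cells, stood at 173 ± 9.0 CPM with the CIP label and 65.9 ± 3.9 CPM with the DMSO label (SD, n = 3 each). The paraspeckle proteins SFPQ (627 ± 23.9 against 270 ± 16.4 CPM) and PSPC1 (52.9 ± 2.8 against 26.0 ± 2.3 CPM) rose, while their partner NONO fell (log2 fold change -0.45). TAF15, an RNA-binding protein, stood at 167 ± 13.1 against 87.2 ± 3.4 CPM. HNRNPA2B1 had a difference of 0.18 ± 0.07 on the log2 scale (SE, adjusted p = 0.0137 by edgeR), against 1.39 for HNRNPA1.

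SR-related coactivators split, 11 of 20 higher and 7 lower (median log2 fold change 0.18, and 8 higher and 7 lower with library totals alone). The share called was 90%, beside 73.1% of all genes tested (34.9% higher and 38.2% lower). TRA2B, a sequence-specific partner of SR proteins, stood at 312 ± 12.5 against 152 ± 0.4 CPM and SRRT (ARS2) at 290 ± 24.9 against 122 ± 7.1 CPM, and RBM23 and SCAF11 rose as well. Of 12 tested genes in a list of SR protein kinases and nuclear importers, 4 were higher and 3 lower. With library totals alone these were 2 and 5. The share called was 58.3%, under the 73.1% of all genes. SRPK1, the cytoplasmic SR kinase, fell to 202, 187 and 191 CPM with the CIP label, against 608, 586 and 581 CPM with the DMSO label (log2 fold change -1.61 ± 0.06, SE, edgeR adjusted p = 1.05e-21). CLK3, a nuclear SR kinase, fell to 18.8 ± 5.5 CPM, against 54.5 ± 1.0 CPM. PRPF4B and the importin TNPO2 rose (log2 fold changes 0.65 and 0.63).

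Among core spliceosome genes, 21 of 34 tested Sm and U1, U4, U5 and U6 snRNP genes were higher and 3 lower (median log2 fold change 0.25), but 13 and 8 with library totals alone. The share called was 70.6%, near the 73.1% of all genes. TXNL4A, a U5 protein, stood at 350 ± 7.9 against 141 ± 6.2 CPM, and LSM6, SART1 and SNRNP40 rose too. U2 snRNP and 3' splice site genes were even, 8 higher and 8 lower of 18 (5 and 9 with library totals alone), with 88.9% called. SF1, the branch point binder, rose to 298 ± 6.4 CPM, against 141 ± 3.5 CPM, while ZRSR2, of the minor spliceosome, stood at 24.6 ± 4.5 against 57.9 ± 3.3 CPM, and SF3B6 and SNRPB2 fell. U2AF1 was not tested, with 5 counts against 8, and is uncertain because GRCh38 holds a near-identical copy.

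Other splicing regulators spread widely, 7 higher and 7 lower of 17 tested (5 and 8 with library totals alone). The share called was 82.4%, beside 73.1% of all genes. Of the 24 listed, ESRP1, ESRP2, RBM24, NOVA1, NOVA2, SRRM4 and MSI1 were unread or nearly so and were not tested. CELF1, a binder of GU-rich elements, rose to 351 ± 21.8 CPM, against 87.1 ± 4.4 CPM. RBFOX2 fell to 2.33 ± 1.2 CPM, against 17.7 ± 1.2 CPM, and MBNL2 and RBM47 stood at 0.139 ± 0.153 and 0.149 ± 0.178 CPM with the CIP label against 6.64 ± 2.4 and 6.88 ± 0.60 CPM with the DMSO label (SD, n = 3 each). The CIP-labelled libraries held only 1, 0 and 3 MBNL2 counts and 3, 0 and 1 RBM47 counts. Both genes passed the filter through the DMSO-labelled libraries alone. Of 15 nonsense-mediated decay genes, which clear poison-exon transcripts, 7 were higher and 4 lower (median log2 fold change 0.28, 7 and 5 with library totals alone), and the share called, 73.3%, was near the 73.1% of all genes. SMG1, MAGOHB and SMG8 were among the first (log2 fold changes 0.93, 0.94 and 0.81) and UPF3B among the second (-0.84).

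**Figure D5:**
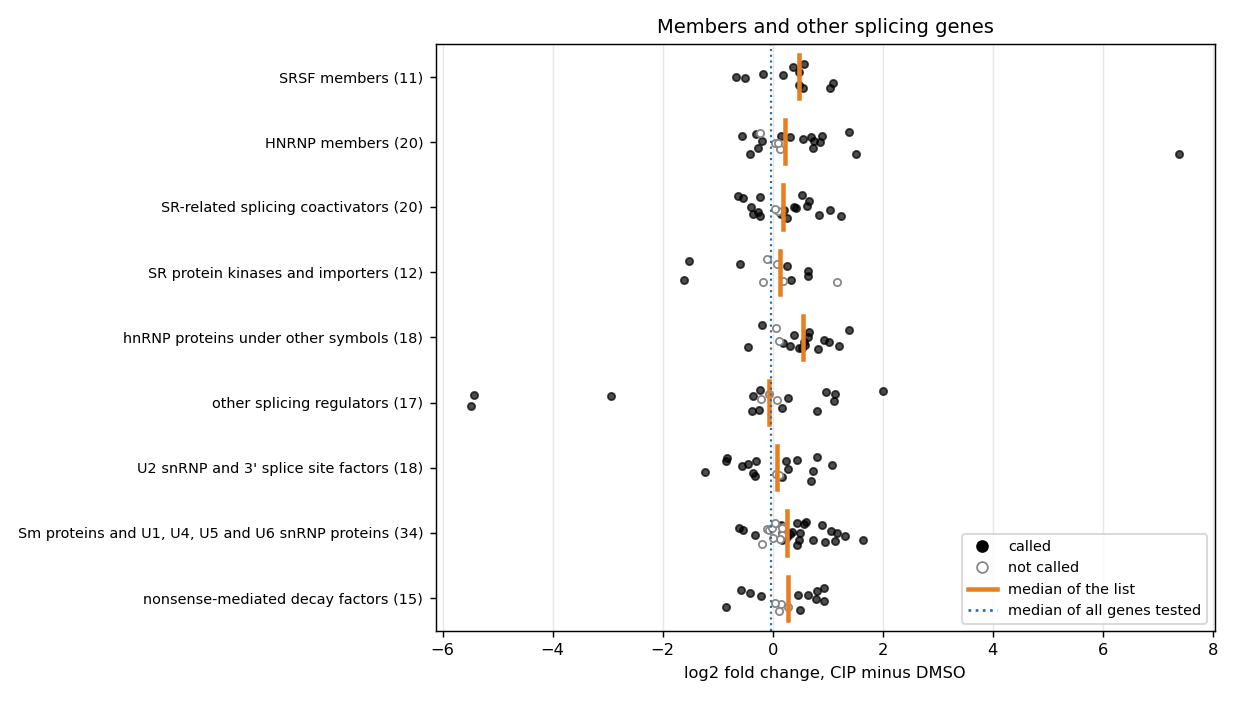
Log2 fold change (CIP minus DMSO) of the members and of the tested genes of 7 other splicing lists, filled where called, with the median of each list as a bar and the median of all genes tested (-0.03) as a dotted line. SRSF and HNRNP genes other than HNRNPLL lie between -0.66 and 1.52, and the other splicing regulators span -5.48 to 2.01.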

How the data were processed

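The authors deposited 6 files of whole-number counts per gene symbol, whose totals differ between libraries as raw counts do. Per the submitters' processing notes, bcl2fastq 2.20.0.422, fastp, STAR, HTSeq and GRCh38 were used, with no role or setting. No source used here gives the annotation release, the strand setting or any use of molecular identifiers, and intervals cover counting error only. Groups and replicate numbers come from the sample titles. No 2 libraries of a group were the same within counting error (chi-square per gene between 3.82 and 7.66).

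Genes were tested with edgeR 4.0.16 in R 4.3.3 (robust quasi-likelihood test, filterByExpr, TMM scaling, 2-sided, Benjamini-Hochberg adjustment over 12844 genes, called at 0.05). CPM values are TMM-scaled and 3 counts correspond to 0.288 to 0.347 CPM in a library. The SE is the log2 fold change divided by the square root of F. Pair ratios add 0.5 to each count and use an exact permutation test. Data were also simulated from the means of the DMSO-labelled libraries for all 6 libraries (12809 genes tested), with 50 genes changed at each fold. The test recovered 12 of 50 genes at a 1.25-fold change, 30 at 1.5-fold, 46 at 2-fold and 50 at 4-fold, with 6 false calls. All other genes were left unchanged, whereas 73.1% of genes were called in the data. The simulation therefore does not cover errors of scaling, and its rates may not hold for this comparison.

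The members, pairs and lists were chosen with earlier results of these data known. Named are all members, with the 8 called members of each family with the largest change and the 5 most abundant in more detail, and up to 4 called genes per list at 5 CPM or more. HNRNPL, HNRNPA2B1, NONO and SYNCRIP were added because a pair or the name rule turns on them. Positions and promoter windows are RefSeq's (GRCh38.p14; 31 and 28 members matched), transcript ends GENCODE release 29.

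Same-numbered libraries did not deviate together (correlations -0.027 to -0.01). Alternatives were RLE, upper-quartile or no scaling beyond library totals, no filter, 1 CPM in 3 libraries, DESeq2 1.42.0, limma-voom (limma 3.58.1), the replicate block and each library left out.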

Additional observations from a re-analysis of the deposited data

How the results depend on the processing

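Counts of called members stayed within 1.5 times under every alternative run: 7 to 8 SRSF genes higher and 2 to 3 lower, and 9 to 12 HNRNP genes higher and 4 to 7 lower. DESeq2, limma-voom and the filter of 1 CPM in 3 libraries changed the call of none of the 31 members. The replicate block, which rests on shared numbers only, ended the call of HNRNPC (log2 fold change 0.143, adjusted p = 0.0886) and of no other member, with 8 and 3 SRSF and 10 and 5 HNRNP genes called higher and lower. Library totals alone reversed SRSF10 (-0.044), HNRNPK (-0.192), HNRNPDL (-0.103), HNRNPC (-0.087) and HNRNPUL2 (-0.125), ended the HNRNPU call and called HNRNPA1L2 (-0.469). HNRNPK also changed sign with upper-quartile scaling (-0.008) and without DMSO replicate 1 (-0.029, the lowest of a range up to 0.076 without 1 library). HNRNPDL was called with no filter (adjusted p = 0.0469) and without CIP replicate 1 (0.0231). Calls of SRSF4, SRSF10, HNRNPC, HNRNPA3 and HNRNPR ended under settings given with them, and the cause was not tested.

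The median log2 fold change under library totals alone was 0.243 for SRSF (0.472 with TMM) and -0.004 for HNRNP (0.226 with TMM). Without 1 library they ranged from 0.372 to 0.483 and from 0.205 to 0.25. The difference in summed level, CIP minus DMSO, was 101 CPM for SRSF (-370 with library totals alone, 8.56 with upper-quartile scaling, 19.3 to 154 without 1 library) and 1470 CPM for HNRNP (408 and 1260, and 1370 to 1610 without 1 library). Among pairs, without 1 library the difference ranged from -0.16 to 0.073 for SRSF1/SRSF9, from -0.19 to 0.033 for SRSF2/SRSF8 and from -1.47 to 0.735 for HNRNPH1/HNRNPH2, which was 0.286 with 1 CPM added. Lists moved most with library totals alone: SR kinases and importers to 2 higher and 5 lower, U2 factors to 5 higher, Sm and snRNP genes to 13 higher and 8 lower. hnRNP genes under other symbols had 1 called lower with no filter, and 1 to 2 without 1 library, and decay factors 2 to 4. HNRNPA1L3 and HNRNPLL have the fewest counts of the members.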

Other observations

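The surroundings of HNRNPLL on chromosome 2 were read after its values were seen. Among the 4 tested genes nearest on either side, GALM, galactose mutarotase (38666114 to 38734765), stood at 12.5 ± 2.7 CPM with the CIP label and 0.415 ± 0.137 CPM with the DMSO label (SD, n = 3 each). CYP1B1, a cytochrome P450 of oestrogen and xenobiotic metabolism (38067509 to 38076151), stood at 32.1 ± 3.3 against 1.31 ± 0.61 CPM, and PRKD3, a protein kinase D (37250502 to 37324833), at 24.6 ± 3.2 against 0.255 ± 0.287 CPM. Between and beside them ATL2 (50.8 ± 2.0 against 52.2 ± 4.1 CPM) and GEMIN6 (30.1 ± 5.3 against 33.7 ± 1.3 CPM) were not called, CDC42EP3 was lower (5.71 ± 0.74 against 50.9 ± 1.7 CPM), DHX57 was slightly higher (6.10 ± 1.3 against 3.69 ± 1.0 CPM, edgeR adjusted p = 0.0397), and the other member, SRSF7, rose 1.39-fold. The 9 genes thus held changes in both directions and genes not called.

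SNRPN, the Sm protein of neurons whose locus is imprinted, was read 51 times with the CIP label and 0 times with the DMSO label, and was not tested.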
